A study of Homo sapiens with 8 samples.

Results

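CD10, the product of the gene MME, belongs to a set of peptidases that cut small signaling peptides, and the expression of 10 such genes was described in CD10-transfected A375 melanoma cells. The genes were MME, MMEL1, ECE1, ECE2, PHEX, ANPEP, LNPEP, DPP4, NLN and THOP1, and every probe that the platform annotation assigns to one of them was taken. Of the 10 genes, 9 had a probe, which gave 16 probes of the 47322 on the array, and LNPEP was not analysed here. A375 is a human melanoma line. CD10-A375 cells carry an expression plasmid with the open reading frame of human CD10, and mock-A375 cells carry the empty vector. Both were selected with G418, and the CD10-A375 cells were sorted for overexpression of CD10. RNA of 4 CD10-A375 and 4 mock-A375 samples, which the labels give as biological replicates, was hybridized to Illumina HumanHT-12 bead arrays. Since the sources used here name 1 transfected population for each cell type, all p-values refer to the spread among samples of that population. Effects of the separate transfections, of sorting and of CD10 cannot be told apart.

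CD10, also called neprilysin, is a zinc metallopeptidase of the M13 family with its active site outside the cell, where it cuts peptides such as substance P, enkephalins, endothelins and natriuretic peptides and so ends their signal. MMEL1, ECE1, ECE2 and PHEX are M13 relatives. ANPEP and LNPEP are M1 aminopeptidases, which remove amino acids 1 at a time from the N-terminus, DPP4 is a serine peptidase that removes dipeptides, and NLN and THOP1 are M3 oligopeptidases that are found mainly inside the cell rather than in the plasma membrane.

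The authors deposited for each probe a background-subtracted signal on a linear scale and a detection p, the position of the probe among the negative control probes of its array. A probe was called detected at a detection p of 0.01 or less. Between 15930 and 16937 probes were detected per array, and the lowest signal of a detected probe was 33.2 to 40.7 per array. The test took in the 19550 probes that 1 or more arrays detected, after background correction and quantile normalization on a log2 scale with an offset of 16 that understates the change of dim probes. Of the 9 measured melanocyte-lineage markers, MIA, SOX10, MC1R and MITF were detected on all arrays, and MLANA, PMEL, TYR, TYRP1 and S100B were not detected on any. The summed average-normalized signal of these markers, undetected probes included, was 8910 to 9830 on the CD10-A375 arrays and 5410 to 5990 on the mock-A375 arrays. The log2 fold changes were 1.33 for MIA, 0.53 for SOX10, 0.39 for MC1R and 0.14 for MITF, and MITF alone did not pass the test. Of the 7 fibroblast markers, 3 were detected on some array. The summed signal of all 7, undetected probes included, was 121 to 158 in CD10-A375 and 208 to 271 in mock-A375. PDGFRB was detected on all arrays, had -0.12 and did not pass. LUM was detected on 2 mock-A375 arrays and COL1A2 on 1, and neither on any CD10-A375 array, so both were near the detection limit. COL1A1, COL3A1, DCN and PDGFRA were not detected on any array. Of the 5 macrophage markers, CD14 and CD68 were detected, with a summed signal of 835 to 1030 in CD10-A375 and 625 to 758 in mock-A375. The log2 fold changes of the 3 CD68 probes were 0.80, 0.09 and 0.21, of which only 0.80 passed the test (limma, adjusted p = 2.0e-07), and CD14 had 0.14 and did not pass. CD163, CSF1R and MRC1 were not detected on any array. Of the 5 keratinocyte markers, KRT10 alone was detected and had 0.23 (limma, adjusted p = 0.0134). No B lymphoid or endothelial marker was detected on any array. The part of these marker differences in the results below was not tested.

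Among the peptidases, ANPEP showed the largest change and was 3.53-fold higher in CD10-A375, and PHEX was higher with signals near the detection limit. The 2 detected probes annotated to ECE2 and the THOP1 probe were lower, and the other ECE2 probes were not detected on any array. MME itself, MMEL1, ECE1 and DPP4 were not detected on any of the 8 arrays. Of the 16 probes, 6 probes of 5 genes passed the detection filter. The limma test with a threshold of 0.05 on the adjusted p called 2 of these 6 higher in CD10-A375 and 3 lower, whereas 36.6% of all tested probes passed (17.3% higher and 19.3% lower). The 4 CD10-A375 arrays did not overlap the 4 mock-A375 arrays for 5 of the 6 probes, and for 34.6% of all tested probes. PHEX passed the filter only through the CD10-A375 arrays and 2 of the probes stand for ECE2, so the count is given as a description. In RNA of whole cultures, fewer cells with a transcript and less transcript per cell cannot be told apart.

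**Figure D1:**
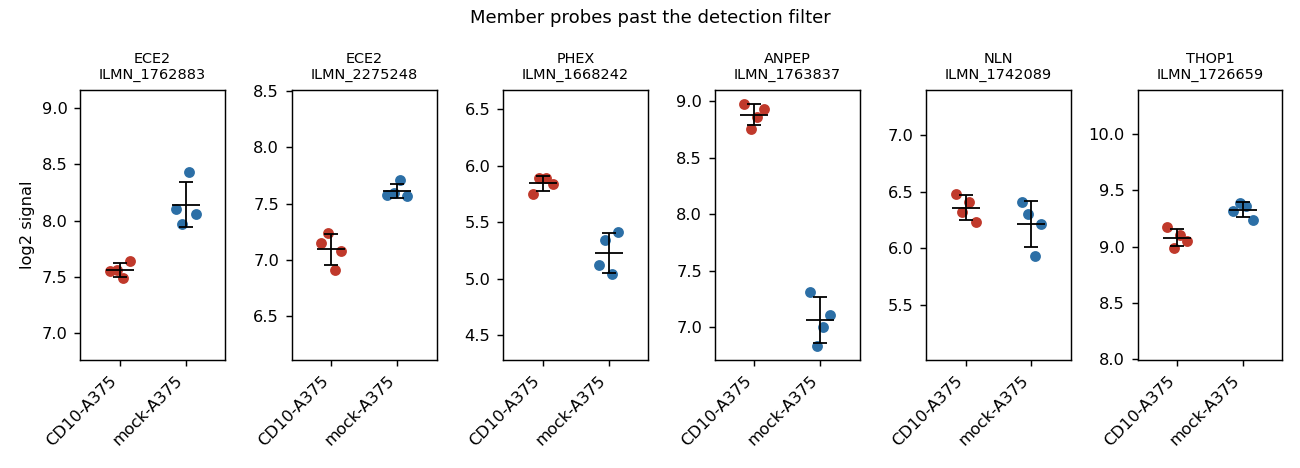
Log2 signal after normalization (y axis, each panel spanning the same number of log2 units) of the 6 probes that passed the detection filter, with CD10-A375 in red on the left and mock-A375 in blue on the right of each panel. Points are the 4 arrays of each group and bars show the mean ± SD, and only for NLN do the groups overlap.

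MME was examined first because it is the gene that was transfected. It lies on chromosome 3 from 155024202 to 155183729 in GRCh38.p14 and has 4 probes. Probe ILMN_1696162, designed on the transcript NM_000902, gave background-subtracted signals of -0.238, 1.72, 2.99 and 4.09 on the CD10-A375 arrays and 15, 8.06, 3.81 and -6.07 on the mock-A375 arrays. The probe of transcript NM_007287 gave -7.76, -13.3, -7.15 and -0.761 in CD10-A375 and -13.5, -18.1, -11.6 and -21.8 in mock-A375. ILMN_1678170 gave -17.6 to -14.1 in CD10-A375 and -19 to -9.94 in mock-A375, and ILMN_1751943 gave -9.31 to -7.63 in CD10-A375 and -8.92 to 2.16 in mock-A375. The groups overlapped for all 4 probes, and every value lay under the lowest detected signal of its array. Of the 16 MME values per group, 13 were below 0 in CD10-A375 and 12 in mock-A375, and the lowest detection p of the gene was 0.114, on a mock-A375 array. The plasmid carries no MME sequence outside the reading frame, and where in the transcript these probes bind was not analysed here, so the arrays do not check the transfection. The study reported CD10 protein in CD10-A375 cells by flow cytometry and Western blot, and none in mock-A375 cells by flow cytometry.

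Of the M13 relatives, MMEL1, whose product is a neprilysin-like enzyme, was at background in both groups. Its probe ILMN_1718488 gave signals of -12.3 to -2.65 in CD10-A375 and -2.73 to 15.5 in mock-A375, and its probe ILMN_2151241 gave -14.6 to 6.31 in CD10-A375 and -20 to 8.13 in mock-A375. ECE1 encodes the enzyme that converts big endothelin to active endothelin. Its single probe gave 19.7, 9.79, 14.4 and 12.4 in CD10-A375 and 17.9, 11.4, 15.2 and 10.6 in mock-A375, with a lowest detection p of 0.0532. The groups overlapped for each of these probes. A single undetected probe says only that its signal was not distinguishable from the negative controls.

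**Figure D2:**
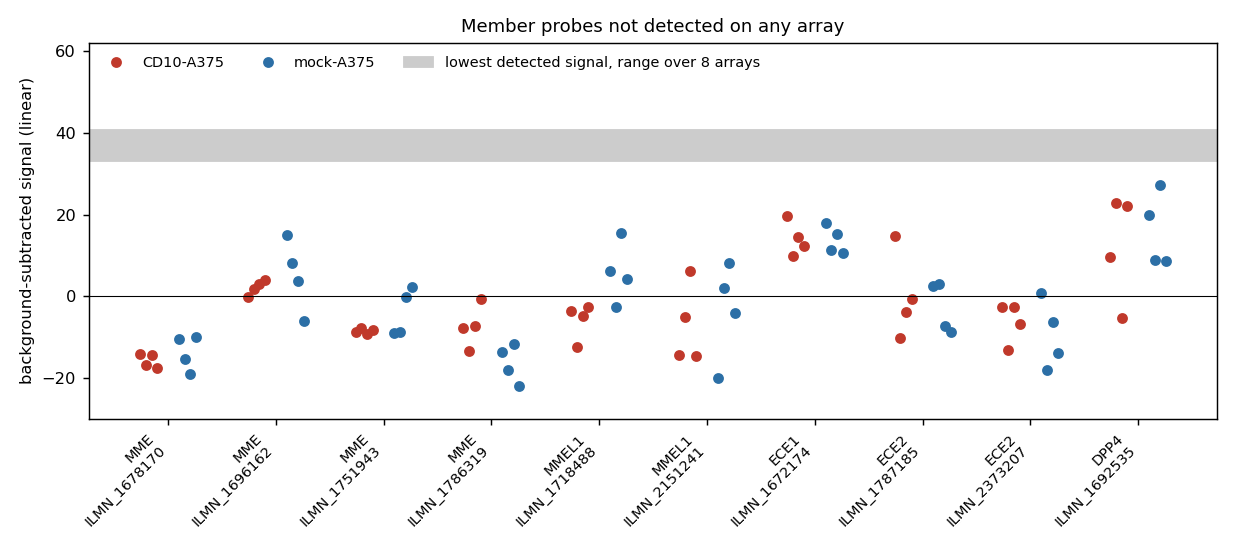
Background-subtracted signal on a linear scale (y axis) of the 10 probes that were not detected on any array, with the 4 CD10-A375 arrays in red to the left of the 4 mock-A375 arrays in blue for each probe. The gray band spans the lowest detected signal of the 8 arrays, 33.2 to 40.7, and all 80 points lie below it, the highest at 27.3 for DPP4 on a mock-A375 array.

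ECE2, a second endothelin-converting enzyme, has 4 probes, of which 2 were detected on all 8 arrays and were lower in CD10-A375. Probe ILMN_1762883 had signals of 164, 191, 156 and 172 in CD10-A375 and 268, 226, 347 and 256 in mock-A375. All CD10-A375 values lay under all mock-A375 values, the highest of which was that of replicate 3. Its log2 signal was 7.56 ± 0.06 in CD10-A375 and 8.14 ± 0.20 in mock-A375 (SD, n = 4 each). The difference was -0.58 on the log2 scale with an SE of 0.10 (limma, adjusted p = 1.9e-04). Probe ILMN_2275248 had signals of 121, 151, 101 and 111 in CD10-A375 and 183, 172, 204 and 177 in mock-A375. Again the groups did not overlap, and the difference was -0.52 on the log2 scale with an SE of 0.10 (limma, adjusted p = 5.0e-04). With SAM, the test of the study's methods, the adjusted p was 0.0448 for the first probe and 0.0564 for the second.

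The gene behind these ECE2 signals is uncertain. The platform annotation gives both probes the symbol ECE2, but the accession of ILMN_1762883, NM_032331, belongs in RefSeq to EEF1AKMT4, a gene for a lysine methyltransferase that lies upstream. The accession of the other 3 probes, NM_014693, belongs to the read-through transcript EEF1AKMT4-ECE2, which joins both genes on chromosome 3. EEF1AKMT4 spans 184249672 to 184258759 and ECE2 184276022 to 184293031 in GRCh38.p14. The other NM_014693 probes were not detected on any array. ILMN_1787185 gave signals of -10.1 to 14.8 in CD10-A375 and -8.82 to 3.01 in mock-A375, and ILMN_2373207 gave -13 to -2.51 in CD10-A375 and -18.1 to 0.863 in mock-A375. Signal from the peptidase and signal from its upstream neighbor cannot be told apart with these probes. The 250 bases before the start that EEF1AKMT4 and the read-through transcript share, at chr3:184249422-184249671 on the plus strand, are shown because both detected probes carry accessions of transcripts that begin there.
EEF1AKMT4-ECE2: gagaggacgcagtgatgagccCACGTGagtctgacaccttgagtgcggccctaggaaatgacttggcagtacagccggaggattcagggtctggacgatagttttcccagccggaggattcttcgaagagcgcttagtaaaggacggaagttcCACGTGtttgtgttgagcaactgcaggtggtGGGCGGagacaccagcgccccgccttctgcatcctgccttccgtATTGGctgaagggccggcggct
In this and the sequences below, from RefSeq and GRCh38.p14, capitals mark matches on either strand to GGGCGG, the GC box of Sp1-type factors, CCAAT, the TATA-type motif TATAAA, the E-box motifs CACGTG and CATGTG that MITF can bind, and the AP-1 motif TGANTCA, and no match to a motif overlapped one to another motif. The window holds 2 matches to CACGTG, which 6.34% of all 35116 RefSeq windows of this length contain at least once, 1 to GGGCGG (42.6% of windows) and 1 to CCAAT (32% of windows). A match describes letters in the window and not a bound site.

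PHEX, a membrane peptidase of bone whose loss causes X-linked hypophosphatemia, was higher in CD10-A375. Its single probe gave signals of 37.7, 47.8, 42.5 and 39.2 in CD10-A375 and 16.3, 23, 13.5 and 26.8 in mock-A375. The groups did not overlap, but all values were close to the lowest detected signals. The probe was detected on 3 of the 4 CD10-A375 arrays, with replicate 1 just outside at a detection p of 0.0104, and on no mock-A375 array, where the lowest detection p was 0.0351. For a bound, each mock-A375 array was given its lowest detected signal, or the PHEX signal where that was higher. PHEX in CD10-A375 then came out as at least 1.08-fold higher, and this bound was not tested. The fitted difference was 0.62 on the log2 scale (limma, adjusted p = 0.006). It is no measured fold, since its size depended on how low signals were handled. It was 0.36 at an offset of 50 and 1.14 for average-normalized values with a floor of 0.1, and passed the test in both (adjusted p = 0.00646 and 0.0104 from limma). PHEX entered the test only through the CD10-A375 arrays, so these p-values are given as a description. Under a filter that asks for detection on all 4 arrays of a group, PHEX was not tested.

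ANPEP encodes aminopeptidase N, also called CD13, a surface enzyme of myeloid cells, kidney and intestinal brush border that acts beside CD10 on enkephalins and other peptides. It had 1 probe, designed on NM_001150, detected on all 8 arrays. The signals were 469, 465, 422 and 442 in CD10-A375 and 148, 94.1, 117 and 124 in mock-A375. Each CD10-A375 array was well above each mock-A375 array, and the lowest mock-A375 value was that of replicate 2. The log2 signal was 8.88 ± 0.10 in CD10-A375 and 7.07 ± 0.20 in mock-A375 (SD, n = 4 each), and the log2 fold change was 1.82 with a 95% interval of 1.60 to 2.03 (limma, adjusted p = 1.0e-10). Of all tested probes, 1.49% had a larger change in either direction. The methods ask for a SAM p under 0.01 with a fold over 2 or under 0.5. Here these thresholds were applied to the unadjusted limma p in place of the SAM p. On these normalized values ANPEP alone of the 6 tested probes passed them. Of all tested probes 4.96% passed (2.94% with a fold over 2 and 2.02% with a fold under 0.5). On average-normalized values with a floor of 0.1, the processing that the methods describe, PHEX passed them as well, again with limma. Leaving out any 1 array gave log2 fold changes of 1.74 to 1.90.

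ANPEP lies on the minus strand of chromosome 15 from 89784895 to 89814852 in GRCh38.p14, and RefSeq places transcript starts at a pair of sites in it. The 250 bases before each start are shown because a single probe cannot tell from which start the higher ANPEP signal came. The upstream window lies at chr15:89814853-89815102 and the downstream window at chr15:89806629-89806878.
ANPEP upstream start: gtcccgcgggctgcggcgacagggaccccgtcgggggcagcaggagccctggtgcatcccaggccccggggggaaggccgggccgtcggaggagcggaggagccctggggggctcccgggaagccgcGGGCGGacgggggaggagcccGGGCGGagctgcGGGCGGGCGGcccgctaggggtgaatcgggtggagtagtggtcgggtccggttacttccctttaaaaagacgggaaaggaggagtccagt
ANPEP downstream start: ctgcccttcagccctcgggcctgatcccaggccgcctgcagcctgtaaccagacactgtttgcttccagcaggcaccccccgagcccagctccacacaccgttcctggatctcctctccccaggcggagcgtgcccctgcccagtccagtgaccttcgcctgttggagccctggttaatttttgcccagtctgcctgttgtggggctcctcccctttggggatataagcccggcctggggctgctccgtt
The upstream window holds 26 CpG and 4 matches to GGGCGG, the last pair overlapping by a few bases, and the downstream window 9 CpG and no match to any of the 6 motifs. The median over all RefSeq windows was 11 CpG. Across the 8 arrays the 3 genes whose log2 signals, centered on their own means, lay closest to those of ANPEP among 11559 probes detected on all arrays were LPIN2 (Euclidean distance 0.266), SULF2 (0.271) and PRRX1 (0.325). Their log2 fold changes were 1.68 for LPIN2, 1.75 for SULF2 and 1.71 for PRRX1. The likeness rests mainly on the difference between the groups, which all 4 genes share by this choice.

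DPP4, the surface peptidase CD26 that truncates chemokines and incretins, was not detected on any array. Its signals were 9.72, 22.8, -5.35 and 22.1 in CD10-A375 and 19.9, 8.82, 27.3 and 8.65 in mock-A375. The groups overlapped, and the lowest detection p was 0.0351, on mock-A375 replicate 3.

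The 2 M3 oligopeptidases were detected on all arrays. THOP1, thimet oligopeptidase, which degrades bradykinin, neurotensin and other short peptides, had signals of 534, 550, 499 and 481 in CD10-A375 and 649, 628, 686 and 591 in mock-A375. The groups did not overlap, but the difference was small. The log2 signal was 9.07 ± 0.08 in CD10-A375 and 9.33 ± 0.06 in mock-A375 (SD, n = 4 each), a difference of -0.26 on the log2 scale with an SE of 0.07 (limma, adjusted p = 0.00994). Of all tested probes, 42.8% had a larger change, and the call was lost with SAM (adjusted p = 0.258). NLN, neurolysin, which cuts neurotensin, had signals of 71.9, 70.8, 67 and 55.4 in CD10-A375 and 70.5, 61.3, 46.5 and 59 in mock-A375. The groups overlapped. Its log2 fold change was 0.15 with a 95% interval of -0.14 to 0.44 (adjusted p = 0.438 from limma).

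The window before the start of THOP1, at chr19:2785253-2785502 on the plus strand, is shown beside those of ANPEP because the genes changed in opposite directions.
THOP1: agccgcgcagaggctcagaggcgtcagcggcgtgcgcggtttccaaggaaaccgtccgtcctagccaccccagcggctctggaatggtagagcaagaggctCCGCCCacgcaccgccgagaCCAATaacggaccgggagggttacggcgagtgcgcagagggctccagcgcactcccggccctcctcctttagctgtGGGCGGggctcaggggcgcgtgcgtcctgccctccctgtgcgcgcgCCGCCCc
It holds 29 CpG, 3 matches to GGGCGG and 1 to CCAAT. Of the 10 peptidase genes, 8 have an entry in the RefSeq promoter table.

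**Figure D3:**
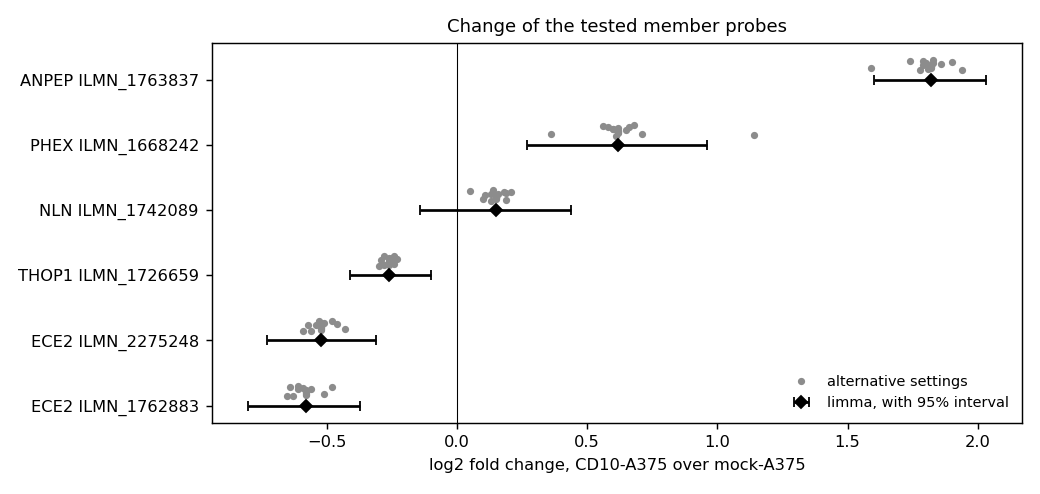
Log2 fold change of CD10-A375 over mock-A375 (x axis) for the 6 tested probes. Black diamonds with bars show the limma estimate and its 95% interval, and gray points the alternative settings, none of which changed the sign of a probe.

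Genes around these peptidases were described at the brightest tested probe of each gene. Of all 11303 genes tested in this way, 41.8% passed the same threshold (19.9% higher and 21.9% lower in CD10-A375), and their median log2 fold change was -0.03. Of 18 other zinc peptidases, most of which cut short peptides, 17 had a probe and 10 were tested, of which 2 were higher, 1 was lower and 7 did not pass, with a median log2 fold change of 0.02. AOPEP, an M1 aminopeptidase, had signals of 42.6, 52.5, 38 and 39.8 in CD10-A375 and -3.72, 0.876, -1.8 and 24.2 in mock-A375, where it was not detected. It passed the detection filter only through the CD10-A375 arrays, and by the same bound CD10-A375 was at least 1.11-fold higher. The adjusted p of 3.3e-04 from limma belongs to the fitted difference and not to this bound. PITRM1, a mitochondrial peptidase, had a log2 fold change of 0.20 (adjusted p = 0.0443 from limma), and IDE, the insulin-degrading enzyme, had -0.29 (adjusted p = 0.00973 from limma). The call of PITRM1 was lost under several alternatives, among them SAM, no normalization between arrays and the omission of single arrays. The 7 others ran from -0.38 to 0.13. One of them, the cytosolic aminopeptidase gene NPEPPS, had -0.06 at its brightest probe, -0.03 at another and 0.44 at probe ILMN_1680435, which passed the test (limma, adjusted p = 0.00671). The angiotensin-converting enzyme gene ACE and the M13 genes KEL and ECEL1 were not detected on any array.

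Of 14 dipeptidyl and prolyl peptidases other than DPP4, 11 were tested, and 2 were higher, 1 was lower and 8 did not pass. DPP9, a cytosolic relative of DPP4, had a log2 fold change of 0.23, the aminopeptidase P gene XPNPEP1 0.21 and the lysosomal gene DPP7 -0.27. The median was -0.05. The list fell to 1 called gene without CD10-A375 replicate 4 or without normalization between arrays, and to none with SAM, and 3 other DPP7 probes had -0.07 to 0.03. XPNPEP3, PREPL and PRCP did not pass at their brightest probe but did at another. That probe had -0.53 for XPNPEP3, -0.37 for PREPL and -0.22 for PRCP (limma, adjusted p = 0.029, 0.00495 and 0.0307). FAP, the closest relative of DPP4, was not detected on any array.

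Of 17 genes for proteins that process peptides or their precursors and for members of the same families, 12 were tested, of which 5 were higher, 1 was lower and 6 did not pass, with a median of 0.19. The proprotein convertase gene PCSK5 had signals of 237, 281, 200 and 194 in CD10-A375 and 90.8, 88.8, 147 and 123 in mock-A375, and its log2 fold change was 0.98 with an SE of 0.13 (limma, adjusted p = 7.2e-06). The gene CPN1, for a subunit of the plasma enzyme carboxypeptidase N that trims mature peptides, had 0.57 and the carboxypeptidase-like gene CPXM1 0.51. CPXM2, whose product lacks carboxypeptidase activity, was lower, by a bound of at least 1.2-fold, in CD10-A375, where no array detected it. It passed the filter only through the mock-A375 arrays. The adjusted p of 3.7e-05 from limma belongs to its fitted difference and not to the bound.

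Most precursors of the peptides that these enzymes cut were at background. Of 35 precursor genes, 34 had a probe and 7 were tested, and 27, including EDN1, NPPA, NPPB, NTS and VIP, were not detected on any array. Of the 7 tested, 2 were higher, 2 were lower and 3 did not pass, with a median of -0.23. The amyloid precursor gene APP was higher, with signals of 1760, 1170, 952 and 961 in CD10-A375 and 410, 273, 587 and 436 in mock-A375 (log2 fold change 1.53, adjusted p = 1.7e-06 from limma), and its 3 tested probes had 1.53, 1.99 and 1.59. EDN3, the endothelin of melanocyte development, is counted as higher but passed the filter only through 1 CD10-A375 array and was detected on no mock-A375 array, so no fold is given. TAC1, the precursor of substance P, had signals of 71.2, 82.9, 53.4 and 68 in CD10-A375 and 177, 199, 254 and 224 in mock-A375. ADM, the precursor of adrenomedullin, had 428, 604, 415 and 391 in CD10-A375 and 1240, 1120, 1350 and 1190 in mock-A375. Neither group pair overlapped, and both genes were lower (adjusted p = 4.2e-08 for TAC1 and 1.9e-10 for ADM from limma).

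Of 42 receptor genes for these peptides, 39 had a probe, 12 were tested, 4 were higher, 1 was lower and 7 did not pass, with a median of 0.25. The neurotensin receptor gene NTSR1 had signals of 311, 363, 329 and 283 in CD10-A375 and 23.2, 36.6, 24.3 and 21.7 in mock-A375. It was detected on all 4 CD10-A375 arrays and on 1 mock-A375 array. The fitted difference was 3.00 on the log2 scale (limma, adjusted p = 8.3e-13) and ran from 2.29 to 3.65 over the scaling alternatives, with most of the mock-A375 signals below detection. RAMP1, a subunit of the receptor for calcitonin gene-related peptide, had signals of 451, 626, 449 and 461 in CD10-A375 and 117, 138, 132 and 98.6 in mock-A375, a log2 fold change of 1.93. CALCRL, the receptor chain that RAMP1 accompanies, was not detected on any array. VIPR1, a receptor for vasoactive intestinal peptide, was lower, with 36.1, 60, 42.5 and 32.5 in CD10-A375, where 2 arrays detected it, and 221, 233, 223 and 231 in mock-A375 (limma, adjusted p = 1.9e-10). The fitted difference was -2.05 on the log2 scale and ran from -2.43 to -1.57 over the same alternatives. MC1R, the melanocortin receptor of melanocytes, had 0.39. EDNRB, the endothelin receptor of melanocytes, had 0.39 at the brighter and 1.15 at the other of its 2 tested probes. TACR1, the receptor of substance P, was detected on 1 CD10-A375 array and on no mock-A375 array, so no fold is given.

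Of 10 proteins that bind CD10 or act in the pathway it binds, 8 genes were tested, of which 2 were higher, 4 were lower and 2 did not pass, with a median of -0.23. The Src family kinase gene LYN had signals of 230, 309, 232 and 258 in CD10-A375 and 582, 537, 603 and 573 in mock-A375, and its log2 fold change was -1.08 with an SE of 0.08 (limma, adjusted p = 3.9e-09). The groups did not overlap. Among the ERM proteins that link the CD10 tail to actin, RDX had 0.41, EZR -0.31 and MSN 0.11, and MSN did not pass (adjusted p = 0.265 from limma). The caveolin gene CAV1 was higher, with a log2 fold change of 1.52. The focal adhesion kinase gene PTK2 had -0.62, with -0.12 at its other tested probe, and the kinase gene SRC had -0.53.

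**Figure D4:**
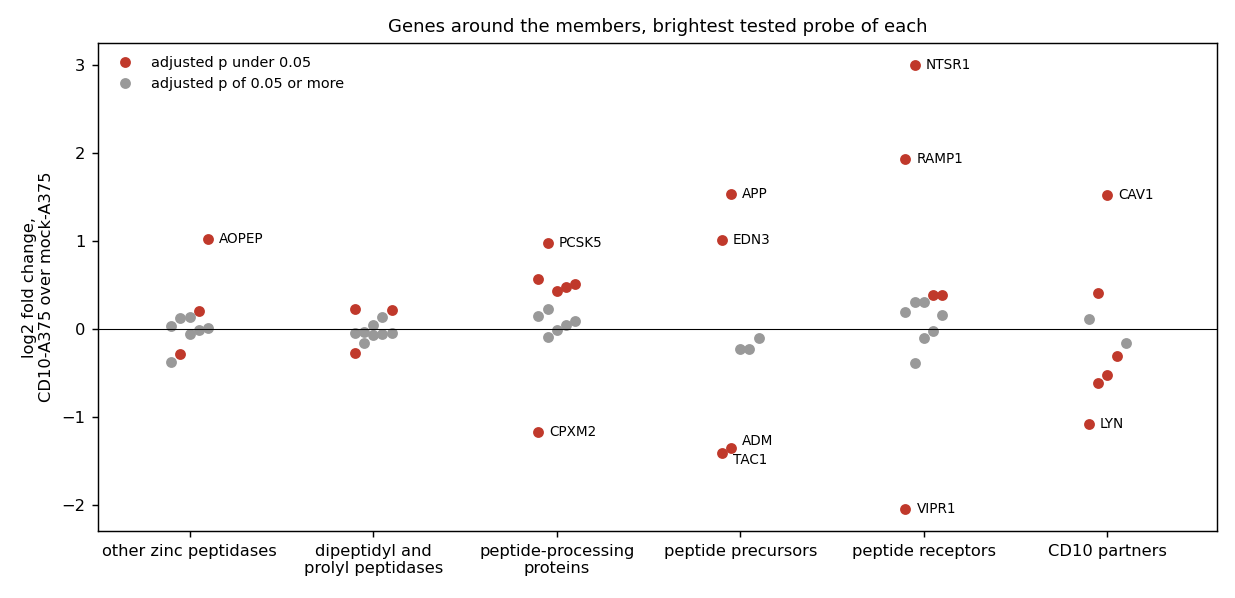
Log2 fold change of CD10-A375 over mock-A375 (y axis) at the brightest tested probe of each gene in the 6 lists (x axis, positions within a list spread only for legibility). Red points passed the limma threshold and gray points did not. The labeled points include genes with signals below detection on some arrays, such as NTSR1 (1 of 4 mock-A375 arrays detected) and VIPR1 (2 of 4 CD10-A375 arrays detected), whose positions depend on how low signals were handled. AOPEP and EDN3 were detected on no mock-A375 array and CPXM2 on no CD10-A375 array, so their plotted positions are no measured folds.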

How the data were processed

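Total RNA of 4 CD10-A375 and 4 mock-A375 cultures was measured on Illumina HumanHT-12 bead arrays without pooling. With GenomeStudio, the authors made and deposited background-subtracted intensities that were not normalized between arrays, each with a detection p-value. A second deposited table held these intensities average-normalized, which multiplied each array by 1 factor.

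From the intensities that were not normalized, background was corrected by normexp, whose parameters came from the detection p-values. Arrays were then quantile normalized and put on a log2 scale with an offset of 16 (limma 3.58.1, R 4.3.3). The filter (detection p not above 0.01 on 1 or more of the 8 arrays) kept 19550 of 47322 probes. These were tested with limma, two-sided and with an intensity trend, p-values were adjusted by Benjamini-Hochberg across all 19550, and the threshold was 0.05. A SAM statistic with all 70 splits as its null was written anew as an alternative. Both were tested on data with known answers.

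Symbols are those of the platform annotation, in which 30113 probes have 1 symbol, 8 several and 17201 none. Where no array of a group detected a probe, the text gives a bound from the lowest detected signals, and no fold where that bound was not over 1. This was also done for PHEX, which 3 CD10-A375 arrays detected and whose fitted difference is printed beside the bound. The 10 genes and the lists around them were chosen with earlier results of these data known. All probes of the 10 genes are described, then in each list up to 4 called genes, taken by size of change, and the 3 genes closest to the one with the largest change. EDNRB, RDX, EZR, MSN, TACR1, NPEPPS, XPNPEP3, PREPL, PRCP, the markers and the undetected genes were named beyond this rule after their values were seen. Alternatives covered the normalization, background correction, offset, filter, test, intensity trend, replicate number as a block, threshold, the probe used for a gene, and omission of each array. The number of arrays limits the precision.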

Additional observations from a re-analysis of the deposited data

Results flagged for a closer look

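In 7 of 76 groups of 4 arrays examined, 1 array lay apart from the other 3 by more than Dixon's 95% limit for the gap over the range of the group, a gap that chance gives in about 1 in 20 groups. For the ECE2 probe ILMN_2275248, mock-A375 replicate 3 had a log2 signal of 7.71 against 7.57 to 7.59 on the other mock-A375 arrays (gap 0.856 of the range). For APP, CD10-A375 replicate 1 had 10.86 against 10.03 to 10.05 (gap 0.975), and for CAV1, CD10-A375 replicate 2 had 10.56 against 10.77 to 10.79 (gap 0.913). For TAC1, CD10-A375 replicate 3 had 6.14 against 6.46 to 6.51 (gap 0.866). For DPP9, CD10-A375 replicate 2 had 9.12 against 9.27 to 9.29 (gap 0.882) and mock-A375 replicate 4 had 8.92 against 9.04 to 9.06 (gap 0.839). For AOPEP, mock-A375 replicate 4 had 5.33 against 4.66 to 4.74 (gap 0.877), at signals that were not detected.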

How the results depend on the processing

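Of the 6 tested peptidase probes, no alternative that was run changed the direction of any. At an adjusted p under 0.05 calls were lost with SAM, for THOP1 (adjusted p = 0.258) and the ECE2 probe ILMN_2275248 (adjusted p = 0.0564). The SAM null included the observed split and its mirror image, so no SAM adjusted p could fall under 0.0286, the value of ANPEP. What part this floor had in the calls lost with SAM was not tested. With detection required on all 4 arrays of a group PHEX was not tested. Under that filter 4 of 5 peptidase probes and 6951 of 15715 probes in all passed. Without a filter 5 of 16 peptidase probes and 6674 of 47322 probes in all passed, and none of the 10 undetected peptidase probes did. SAM left 3 of the 5 called peptidase probes and 2797 of the 7162 called probes in all. It left 1 of 3 other zinc peptidases, none of 3 dipeptidyl and prolyl peptidases (0 also at an unadjusted SAM p under 0.05, and 3 at an unadjusted limma p under 0.05), 3 of 6 peptide-processing genes and 3 of 5 receptors. At an unadjusted limma p under 0.01 with a fold over 2 or under 0.5, 969 probes in all and 1 peptidase probe passed. So did 1 other zinc peptidase, 0 dipeptidyl and prolyl peptidases, 1 peptide-processing gene, 3 receptors and 2 partners. The same thresholds on average-normalized values with a floor of 0.1, an alternative chosen after seeing the data, gave 1463 probes in all, 2 peptidase probes, 1 other zinc peptidase, 0 dipeptidyl and prolyl peptidases, 2 peptide-processing genes, 3 receptors and 2 partners. Of the dipeptidyl and prolyl peptidases, 1 passed without normalization between arrays, and 6 (2 higher and 4 lower) when any tested probe of a gene could pass. The 41.8% of all genes that passed refers to their brightest probes, so it is no background for these 6. When arrays were left out in turn, 1 to 3 of the dipeptidyl and prolyl peptidases passed, with the lowest count without CD10-A375 replicate 4. The cause of these differences was not tested.

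Leaving out each array gave 6393 to 6946 probes in all and 5 peptidase probes every time. With the replicate number as a block, 6635 probes in all and 5 peptidase probes passed. No pairing of the arrays by number was seen. Deviations of same-numbered arrays correlated at -0.189 to 0.0315, and 1 of 4 CD10-A375 arrays was closest to its own number. With 4 arrays per group this check cannot exclude a pairing. The block changed no call of a peptidase probe. Signals near background limit PHEX, AOPEP, CPXM2 and EDN3 most, and each of ANPEP, PHEX, NLN and THOP1 rests on a single probe.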
